A study of Eohaustorius estuarius with 16 samples.

Results

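The partly detected contigs are the assembled amphipod transcripts whose array probe gave a signal well above background on some arrays and not on others. A contig counted as detected on an array when the scanner software called at least 50% of its spots well above background, and the set holds every contig detected on 5, 6 or 7 of the 16 arrays. The contigs were thus chosen by these detection flags alone, whatever the group of the array. The rule kept 326 of the 8507 contigs on the array (3.83%), of which 122 were detected on 5 arrays, 107 on 6 and 97 on 7. Of the other contigs, 1329 were detected on 0 to 4 arrays, 1746 on 8 to 15 arrays and 5106 on all 16.

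The arrays measured total RNA from whole-body samples of the amphipod Eohaustorius estuarius, in a study of how well microarray results compare between laboratories. This amphipod is a small crustacean that lives in estuarine sand and serves as a test animal for sediments. Laboratory F extracted and hybridised 8 samples from amphipods kept for 10 days on sediment spiked with cyfluthrin at a nominal 1.6 µg/kg. The other 8 samples came from amphipods kept for the same 10 days on sediment spiked with the solvent alone, the control. The labels used here give no sex, size, moult stage, test container or number of animals per sample, so the spread between samples may be partly technical, and in a whole body fewer cells of a type and less RNA per cell cannot be told apart.

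Cyfluthrin is a pyrethroid insecticide that holds voltage-gated sodium channels of nerve cells open, which leads to repetitive firing and paralysis in arthropods. A detection flag is a yes-or-no reading of a continuous brightness, so a transcript near the limit can pass on one array and miss on another with little difference between them. The files name contigs by number and pair none of them with a gene or a sequence, so neither functions nor sequences are given here.

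Cyfluthrin replicates 5 and 6 carried the same sample code in the names of their deposited files and the squared differences between them were 0.851 times those that the scanner software's spot errors give, against 3.31 times for the next most alike pair of arrays, controls 2 and 3. They differed by less than the measurement noise and were averaged as 1 sample, which leaves 7 cyfluthrin and 8 control samples in means and tests. Over all contigs, 80.9% ± 1.77 were detected in cyfluthrin samples (n = 7) and 77.2% ± 7.35 in controls (n = 8; both SD). Control 5 stood at the upper end with 89.4% and controls 7 and 8 at the lower end with 67.6% each, while the cyfluthrin arrays ran between 77.6% and 83.2%. The 75th percentile of the log2 signal was 7.74 ± 0.22 in cyfluthrin samples and 7.04 ± 0.45 in controls, so that a scaled level and an unscaled signal can order the groups differently.

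Detection of the 326 contigs varied more between control arrays than between cyfluthrin arrays. The cyfluthrin samples detected between 78 and 195 of them, with a median of 154 (mean 144 ± 35.4, SD, n = 7). The controls detected between 9 and 259, with a median of 89.5 (mean 98.2 ± 81.7, SD, n = 8). The control range enclosed the whole cyfluthrin range, so the groups overlapped.

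Single arrays set much of this picture. Control 5 detected 259 of the contigs (79.4%), more than any other array. Controls 7 and 8 detected 17 (5.21%) and 9 (2.76%), and 300 of the 326 contigs were found on neither of them. In the cyfluthrin group replicate 7 detected most, 195 (59.8%), and replicate 1 fewest, 78 (23.9%). These are the arrays at the 2 ends of the count over all contigs in each group as well.

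**Figure D1:**
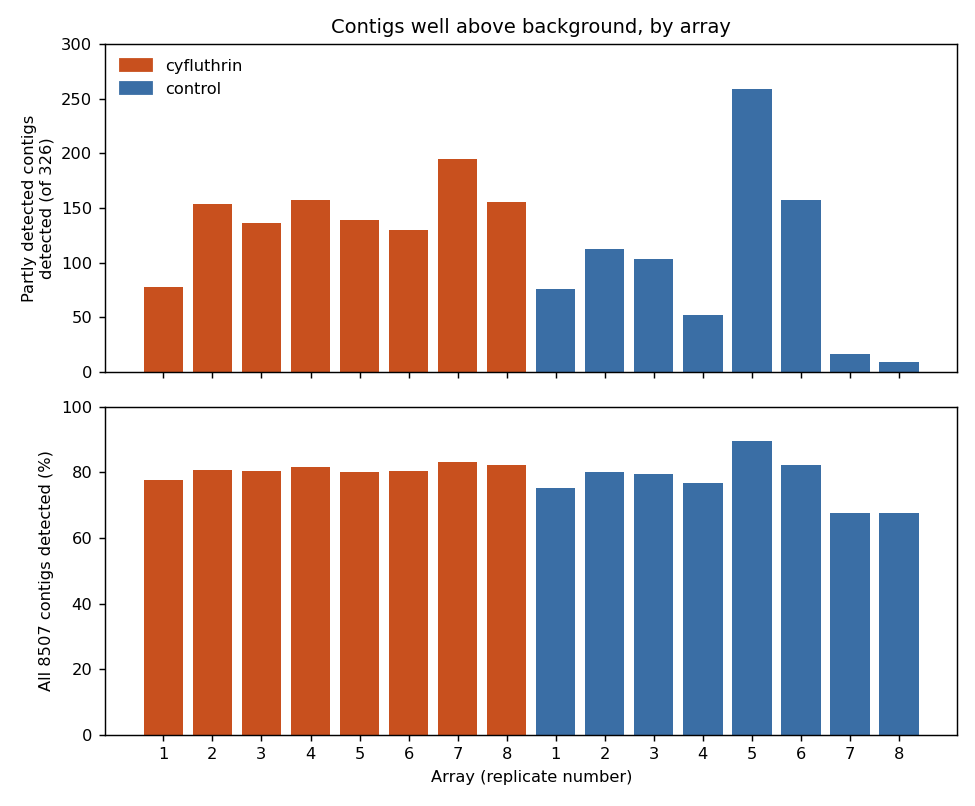
The number of the 326 partly detected contigs found well above background on each array (upper panel) and the percentage of all 8507 contigs found there (lower panel), for the 8 cyfluthrin and the 8 control arrays by replicate number. Control 5 is highest in both panels with 259 contigs and 89.4%, and controls 7 and 8 are lowest with 17 and 9 contigs and 67.6% each.

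The 326 contigs gave 1931 detections in all, 1145 on the cyfluthrin arrays and 786 on the control arrays, so 59.3% fell on cyfluthrin arrays. Per array this was a mean of 143 detections for cyfluthrin and 98.2 for control. With controls 5, 7 and 8 left out, the cyfluthrin mean of 143 stood against 100.2 over the other 5 controls. The same order appeared on each slide: on slide 1 the mean was 141.5 (78 to 195) for 4 cyfluthrin arrays and 101 (17 to 259) for 4 control arrays, and on slide 2 it was 144.75 (130 to 157) for cyfluthrin and 95.5 (9 to 157) for control. The detection flags chose the contigs, so these splits are a description and were not tested. A share like the 59.3% was not particular to the set. Of the detections of contigs found on 9 arrays, 59.5% fell on cyfluthrin arrays, and for contigs found on 15 arrays 52.6% did. Below the set, the share was 51.1% for contigs found on 4 arrays and 44.8% for those found on 2.

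Contig by contig, 207 were detected on more cyfluthrin than control arrays, 90 on more control than cyfluthrin arrays and 29 on equal numbers. The fullest combination was 4 cyfluthrin arrays and 1 control array, with 43 contigs. Next came 3 cyfluthrin and 2 control arrays with 37, and 4 cyfluthrin and 3 control arrays with 34. Most of the contigs therefore lay in the middle of the range, with detections in both groups. Of the 71 contigs found on exactly 1 control array, 46 were found on control 5.

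**Figure D2:**
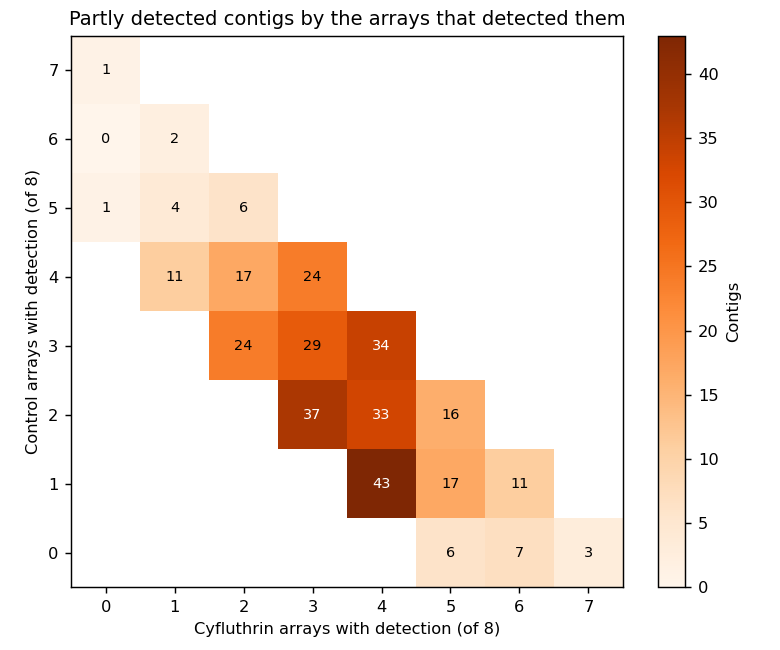
The 326 partly detected contigs counted by the number of cyfluthrin arrays (horizontal axis) and control arrays (vertical axis) on which they were detected; the rule limits the sum to 5, 6 or 7 arrays. The fullest cell, at 4 cyfluthrin arrays and 1 control array, holds 43 contigs, and the bottom row, with no control array, holds 16.

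At the edges, 16 contigs were found on cyfluthrin arrays only, 6 of them on 5 arrays, 7 on 6 and 3 on 7. A further 2 contigs were found on control arrays only. A contig found on all 8 arrays of a group and on none of the other falls outside the rule. The 16 contigs found on cyfluthrin arrays only were not found on the same arrays: replicates 4, 7 and 8 each detected 14 of them, replicates 5, 6 and 3 detected 13, 12 and 11, and replicates 2 and 1 detected 8 and 7.

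Few contigs shared an exact combination of arrays. The 326 contigs took 288 different combinations, 267 of them held by a single contig. The commonest combination, cyfluthrin 1, 4, 5 and 6 with control 5, was held by 10 contigs. A further 6 contigs had those arrays and control 2, and 4 had cyfluthrin 3 to 8. Of the contigs with the first 2 of these combinations, 9 of the 10 and all 6 are among the 22 with the widest range of signal described below.

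As a set the contigs were dim. Their median processed signal, on the scanner's linear scale, was 6.26 ± 0.81 in cyfluthrin samples (n = 7) and 5.52 ± 2.70 in controls (n = 8), against medians of 1.62 ± 0.13 and 1.71 ± 0.29 for the negative control spots of the same samples (all SD). Control 5 had the highest median signal, 11.7. The dimmest median among controls was 3.02. Both lay above the negative control spots.

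A softer criterion of the scanner software, a signal that is positive and significantly above the local background, was met more often than the flag used here. By it 184 of the 326 contigs were seen on all 16 arrays and 297 on at least 13, and the fewest arrays for any of them was 7. None of the 326 was saturated on any array. Where a contig was detected, its unscaled signal was a median of 2.08 times its signal on the arrays where it was not detected, with quartiles of 1.70 and 2.79. The full range ran from 1.06 to 84.1, so a detection and a miss were in most cases close together and in a few far apart.

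On either side of the rule the levels ran on without a break. A level here is the log2 of the processed signal over the 75th percentile of its array. The median level of the 140 contigs detected on 4 arrays was −5.44 in cyfluthrin samples and −4.82 in controls, and that of the 122 detected on 5 arrays was −5.19 and −4.85. At the upper end, the 97 contigs detected on 7 arrays had medians of −4.96 in cyfluthrin samples and −4.47 in controls, and the 112 detected on 8 arrays had −4.77 and −4.44.

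Repeated spots describe the same flags spot by spot. Of the 326, 78 were measured by 1 spot, 240 by 2 and 8 by 10 or 11. In the 2-spot contigs, 815 of 1422 detections (57.3%) rested on 1 of the 2 spots, the other spot being below the limit. Among detections of the remaining 2-spot contigs on the array that share was 6.01%. The rule chose the contigs by these flags, so the higher share follows in part from the choice and is a description. The set made up 3.47% of the 2249 contigs with 1 spot, 3.87% of the 6208 with 2 spots and 16% of the 50 with 10 or 11 spots.

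The pair of alike cyfluthrin arrays gives a second view of the same flags. Replicate 5 or 6 or both detected 192 of the contigs, and both detected 77 of these (40.1%), leaving 115 found on one array of the pair alone. For the contigs detected on 8 to 15 arrays, both arrays of the pair detected 1393 of 1657 (84.1%). Fewer detections per contig lower the share that any pair of arrays has in common, so part of this gap was fixed by the rule. The median absolute difference between the pair in the level of a partly detected contig was 0.58 on the log2 scale. Of all pairs of arrays, cyfluthrin 7 and control 5, which detected most contigs in their groups, shared most, 47.9% of the contigs found on either. Controls 7 and 8 shared 0.

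A subset of the contigs was far above the limit on some arrays. With a value below an array's detection limit raised to that limit, 22 of the 326 (6.75%) spanned at least 64-fold among the cyfluthrin samples, against 235 of all 8507 contigs (2.76%). A span of at least 256-fold was found for 15 (4.60%), against 71 of all contigs (0.835%). Among the controls, 3 of the 326 (0.920%) spanned at least 64-fold, against 137 of all contigs (1.61%). This subset was picked after its values were seen and gets no test, and the thresholds of 64 and 256 were set then too.

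In 21 of the 22 contigs the highest cyfluthrin array was replicate 1, and in 17 of these 21 the second was replicate 4. Over all contigs, replicate 1 was the highest cyfluthrin array in 83 of the 235 that spanned at least 64-fold, and 62 of these 83 lay outside the set. All 21 were detected on cyfluthrin 1 and 4, and 20 were detected on cyfluthrin 5, on cyfluthrin 6 and on control 5. By contrast, 1 of the 21 was detected on cyfluthrin 2, 1 on cyfluthrin 3, 0 on cyfluthrin 7 and 2 on cyfluthrin 8. Control 2 detected 8 of them, controls 1, 4 and 6 detected 1 each, and controls 3, 7 and 8 detected 0. The arrays with these contigs lay on both slides, cyfluthrin 1 and 5 and control 5 on slide 1 and cyfluthrin 4 and 6 on slide 2. By column of the slide the split was complete: cyfluthrin 2, 3, 7 and 8 were the 4 arrays of column 3, which held no control, and cyfluthrin 1, 4, 5 and 6 lay in the other columns. Among cyfluthrin arrays, column 3 and the low level of these contigs cannot be told apart. Leaving out cyfluthrin 1, 6 of the 22 still spanned at least 64-fold among the other cyfluthrin samples.

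The levels of the 21 contigs make the same order visible. Their median level was 1.86 on cyfluthrin 1, −1.25 on cyfluthrin 4, −2.53 on cyfluthrin 5 and −2.52 on cyfluthrin 6. On cyfluthrin 2, 3, 7 and 8 it was −6.80, −6.37, −6.50 and −6.35. Control 5 had −3.23, and the other controls lay between −5.88 and −5.00. The median on cyfluthrin 1 was above the 75th percentile of that array, although these contigs were undetected on 9 or more of the 16 arrays.

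**Figure D3:**
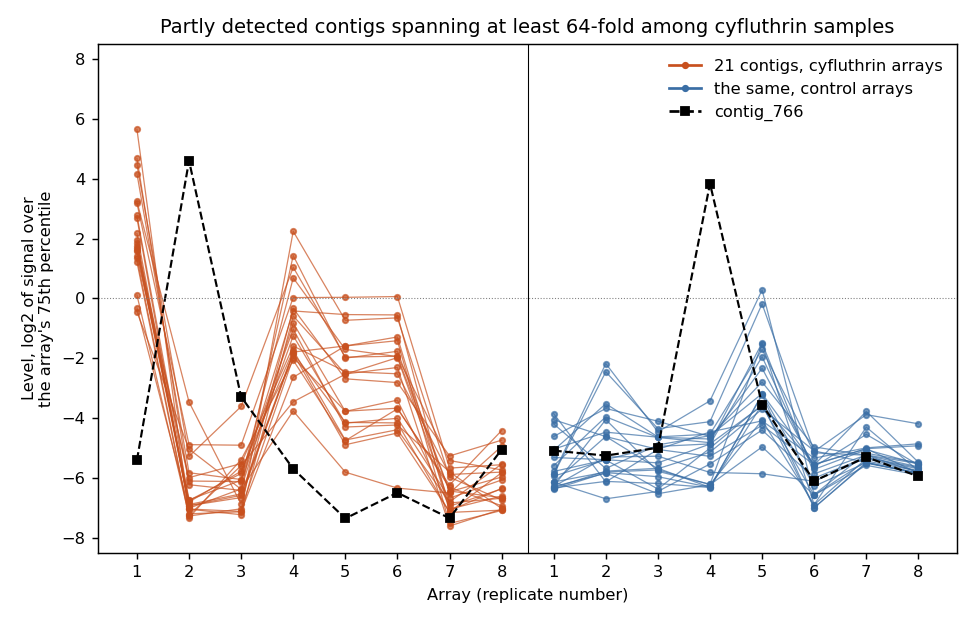
The level, as log2 of signal over the array's 75th percentile, of the 22 partly detected contigs that spanned at least 64-fold among cyfluthrin samples, on the 8 cyfluthrin arrays (left) and the 8 control arrays (right); each line joins the values of 1 contig and has no meaning between arrays. The 21 contigs in colour are highest on cyfluthrin 1, with a median of 1.86, and contig_766 (black, dashed) is highest on cyfluthrin 2 and control 4.

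The spots of these contigs agreed closely where the contig was bright. On cyfluthrin 1 all 71 spots of the 21 contigs were well above background, and in the 16 contigs with more than 1 spot the largest gap between spots was 0.18 on the log2 scale. The 4 contigs with 10 or 11 spots had 42 of 42 spots well above background there, with an SD between spots of 0.042 to 0.057. On cyfluthrin 2 the same 4 contigs had 0, 0, 0 and 1 spots well above background. The alike pair agreed on the subset too: replicates 5 and 6 both detected 20 of the 22 contigs and neither detected the other 2, whereas for the other 304 partly detected contigs both detected 57 of the 172 found on either (33.1%).

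The widest span of any partly detected contig was that of contig_2830, detected on 4 cyfluthrin arrays and 1 control array. Its level was 5.65 on cyfluthrin 1, 2.24 on cyfluthrin 4, −0.73 on cyfluthrin 5 and −0.65 on cyfluthrin 6, and between −7.20 and −5.97 on the other 4 cyfluthrin arrays. In controls it had a lowest level of −6.57, a median of −6.03 and a highest of −4.96. The 4 detected cyfluthrin arrays thus lay far above the other 4 and also differed widely among themselves. With values raised to the detection limit, the span was 3430-fold among cyfluthrin samples and 2.92-fold among controls. The mean difference, cyfluthrin minus control, was 3.12 ± 1.68 (SE) with an adjusted p of 0.165 in the limma fit over all 8507 contigs, which is not past the threshold of 0.05. With the slide column as a covariate the difference was 8.63 or 8.35, with replicate 5 or 6 standing for the alike pair, and passed it (limma adjusted p = 0.000435 and 0.00052). The 4 low cyfluthrin arrays of this contig are the 4 arrays of column 3, so in that fit the group difference rests on the other cyfluthrin arrays and the controls alone.

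The other contig of this kind, contig_766, did not follow those arrays. Its level was 4.60 on cyfluthrin 2, and the other cyfluthrin samples had between −7.34 and −3.29. On control 4 it was 3.83, and the other controls had between −6.10 and −3.55. A single array of each group thus stood far above the rest, and the contig had the largest SD of the set among controls, 3.28. The mean difference was −0.11 ± 1.72 (SE, limma adjusted p = 0.970).

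The comparison of cyfluthrin with control asked whether the level of a contig differed between the exposed and the solvent groups. In the limma fit over all 8507 contigs at an adjusted p below 0.05, 80 of the 326 (24.5%) were called, 6 higher and 74 lower in cyfluthrin samples. Over all contigs, 31.6% were called, 6.02% higher and 25.6% lower. In this fit the share called among the contigs was thus not above that of the array as a whole. The share called differed with detection. It was 61.2% for the 402 contigs detected on 0 arrays, with a median log2 difference of −0.75. For numbers of arrays from 8 to 15 it ran from 20.6% to 31.1%. The 326 partly detected contigs had a median log2 difference of −0.46, against −0.29 over all contigs. Without scaling between arrays these medians were 0.24 and 0.41.

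The direction of this shift depended on the scaling. A percentage of all, in brackets, is the share of all contigs called under the same setting. With each array centred on its median, the 326 had a median difference of −0.29 and 43 calls (20.1% of all contigs), 8 higher (8.13% of all) and 35 lower (12% of all). Under quantile normalization the median was 0.00066 and 29 were called (15.7% of all), 17 higher (6.58% of all) and 12 lower (9.07% of all). Under scaling to the E1A spike-in probes it was 0.015 and 16 were called (17.4% of all), 13 higher (15.2% of all) and 3 lower (2.15% of all). With no scaling 30 were called (24.7% of all), 29 higher (24% of all) and 1 lower (0.647% of all). The 6 contigs called higher with the 75th percentile were called higher under each of these 4 settings too. Of the 74 lower ones, 3 were called lower with median, quantile and E1A scaling alike. Over all contigs, 512 were called higher and 2180 lower with the 75th percentile. In each of 5 scalings, 432 of all contigs were called higher and 151 lower, against 6 and 3 of the set. The setting with no scaling was not among those 5.

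Treatments of the dim signals and of single arrays moved the count too. Normexp background correction, which added an offset of 50 to every signal, called 287 of the 326 (88%, against 62.3% of all contigs), every one lower. That offset is large beside the median processed signals of the set, 6.26 in cyfluthrin samples and 5.52 in controls. Its part in the normexp calls was not tested. Raising values below the detection limit to that limit called 121 (37.1%, against 38.7% of all), 4 higher and 117 lower. The authors' deposited values, tested the same way, gave 29 calls (15.6% of all), 17 higher and 12 lower. Without controls 5, 7 and 8 there were 49 calls (19.3% of all), 5 higher and 44 lower.

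The levels of the partly detected contigs also varied more than those of the array. Their median SD was 0.63 among cyfluthrin samples and 0.68 among controls, against 0.39 and 0.48 over all contigs. The median SE of the difference was 0.33, against 0.23. The contigs detected on 8 to 15 arrays came closer to the set. Their median SD was 0.51 among cyfluthrin samples and 0.64 among controls, and their median SE was 0.29. Complete separation of the groups was rare: the cyfluthrin samples lay wholly above the controls for 1 contig (background 1.1%) and wholly below for 5 (background 4.34%), and the groups overlapped for the other 320.

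Detection counts and levels come from the same signals, and they are set side by side as a description. Of the 207 contigs found on more cyfluthrin arrays, 6 were called higher and 14 lower, with a median difference of −0.19 on the scaled level and 0.51 without scaling. Of the 90 found on more control arrays, 0 were called higher and 55 lower, with medians of −0.97 and −0.27. Of the 29 found equally often, 0 were called higher and 5 lower, with medians of −0.71 and −0.01. For 14 contigs, then, more cyfluthrin than control arrays detected the contig although its scaled level was called lower. The calls ran from 2.25-fold to 5.31-fold for the 6 higher contigs and from 1.43-fold to 3.24-fold for the 74 lower ones, of which 43 differed by at least 2-fold.

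**Figure D4:**
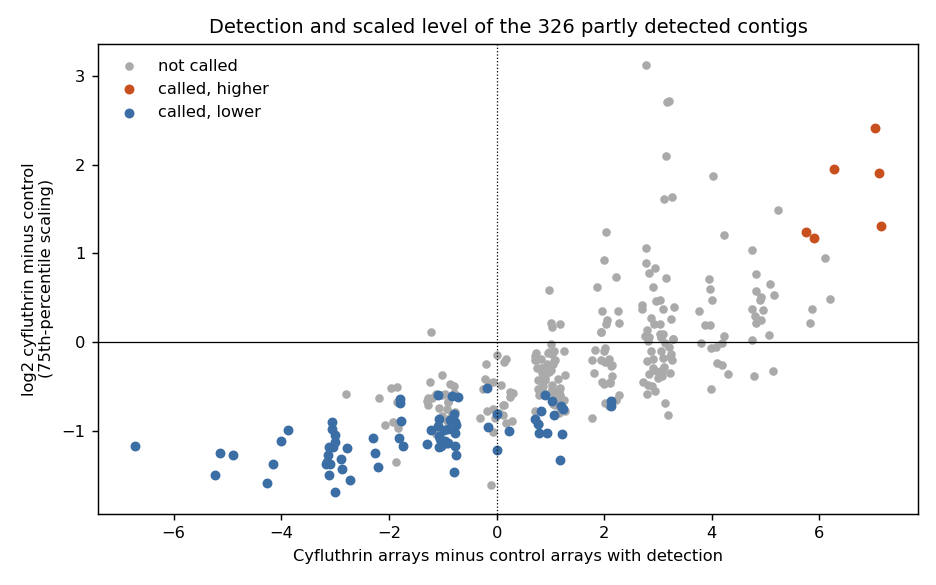
Each of the 326 partly detected contigs by the number of cyfluthrin arrays minus the number of control arrays that detected it (horizontal axis, whole numbers shifted slightly sideways so that points can be told apart) and by its log2 difference in level, cyfluthrin minus control, after 75th-percentile scaling (vertical axis). The 6 contigs called higher lie at the far right, at 6 or 7 more cyfluthrin arrays, and the 74 called lower lie at 2 more cyfluthrin arrays or fewer.

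All 6 contigs called higher belong to the 16 found on cyfluthrin arrays only, and 5 of the 6 are measured by 2 spots. Each was detected on 6 or 7 cyfluthrin arrays: replicates 3, 4, 5, 7 and 8 detected all 6 of them, replicate 6 detected 5, replicate 1 detected 3 and replicate 2 detected 1. In all 16 the mean level was higher in cyfluthrin samples, by 0.02 to 2.41 on the log2 scale. The 16 were picked by detection on cyfluthrin arrays alone. The direction of their differences and calls thus follows in part from that choice and is a description. Since a contig that no control array detected has only an upper bound there, folds are given as bounds, the mean of cyfluthrin samples over the mean of the controls' detection limits (or of the contig's own signal where that is higher). A bound of 1-fold or more could be set for 13 of the 16, the highest of them 2.82-fold.

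The largest of these differences was that of contig_3155, measured by 2 spots and found on 7 cyfluthrin arrays and no control array. Its level had a lowest value of −5.32, a median of −3.36 and a highest of −2.70 in cyfluthrin samples, against −6.90, −6.00 and −5.14 in controls. The cyfluthrin sample at the low end was replicate 2, which lay among the controls, and the other 6 lay above every control. The means were −3.69 ± 0.84 in cyfluthrin samples (SD, n = 7) and −6.09 ± 0.69 in controls (SD, n = 8), at least 2.82-fold higher in cyfluthrin samples (log2 difference 2.41 ± 0.37 SE, limma adjusted p = 0.000984).

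In second place came contig_2512, measured by 1 spot and found on 6 cyfluthrin arrays and no control array. Its level had a lowest value of −6.15, a median of −4.09 and a highest of −2.73 in cyfluthrin samples, against −6.85, −6.37 and −5.13 in controls. Replicate 2 was again the low cyfluthrin sample and the only one within the control range. The means were −4.19 ± 1.02 in cyfluthrin samples (SD, n = 7) and −6.14 ± 0.68 in controls (SD, n = 8), at least 2.01-fold higher in cyfluthrin samples (log2 difference 1.95 ± 0.41 SE, limma adjusted p = 0.00477). With normexp background correction the differences of contig_3155 and contig_2512 turned to −0.23 and −0.40.

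The 2 contigs found on control arrays only, on 5 and 7 of them, were both called lower in cyfluthrin samples. They were at least 2.36-fold lower (means −5.56 in cyfluthrin samples and −4.31 in controls, limma adjusted p = 0.00259) and at least 2.25-fold lower (means −5.39 and −4.23, limma adjusted p = 0.0243). The 55 contigs called lower among those found on more control arrays include both. Their direction, too, follows in part from picking contigs that only control arrays detected.

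The strongest fall by size was that of contig_7939, measured by 1 spot and found on 2 cyfluthrin and 5 control arrays. Its level had a lowest value of −6.04, a median of −5.63 and a highest of −4.39 in cyfluthrin samples, against −5.40, −3.57 and −2.09 in controls. The ranges overlapped between −5.40 and −4.39, where 3 of the 8 controls lay. The means were −5.38 ± 0.71 in cyfluthrin samples (SD, n = 7) and −3.68 ± 1.21 in controls (SD, n = 8), a fold of 3.24 (log2 difference −1.70 ± 0.48 SE, limma adjusted p = 0.0172). The call was lost under quantile normalization (−1.17, limma adjusted p = 0.174) and E1A scaling (−1.22, limma adjusted p = 0.123).

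Next was contig_8236, measured by 1 spot and found on 1 cyfluthrin and 5 control arrays. Its level had a lowest value of −5.40, a median of −4.77 and a highest of −4.53 in cyfluthrin samples, against −4.81, −3.51 and −1.82 in controls. A single control, replicate 3, lay within the cyfluthrin range, and the other 7 lay above it. The means were −4.99 ± 0.38 in cyfluthrin samples (SD, n = 7) and −3.40 ± 0.84 in controls (SD, n = 8), a fold of 3.01 (log2 difference −1.59 ± 0.33 SE, limma adjusted p = 0.00437). The difference stayed negative without scaling, at −0.89, where it was not called (limma adjusted p = 0.10).

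Among the 29 contigs found on 3 arrays of each group, contig_7274 and contig_136 had the smallest differences. For contig_7274 the lowest, median and highest levels were −7.09, −4.87 and −3.64 in cyfluthrin samples, against −6.25, −5.49 and −3.91 in controls. For contig_136 they were −5.79, −5.14 and −4.67 in cyfluthrin samples, against −5.81, −5.04 and −3.95 in controls. The groups overlapped along nearly their whole range in both. The differences were −0.14 ± 0.56 (SE, limma adjusted p = 0.871) and −0.19 ± 0.26 (SE, limma adjusted p = 0.602), which does not show that the groups were alike. With normexp background correction both were called lower, contig_7274 with a difference of −0.60 (limma adjusted p = 0.0192) and contig_136 with −0.62 (limma adjusted p = 0.0180).

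**Figure D5:**
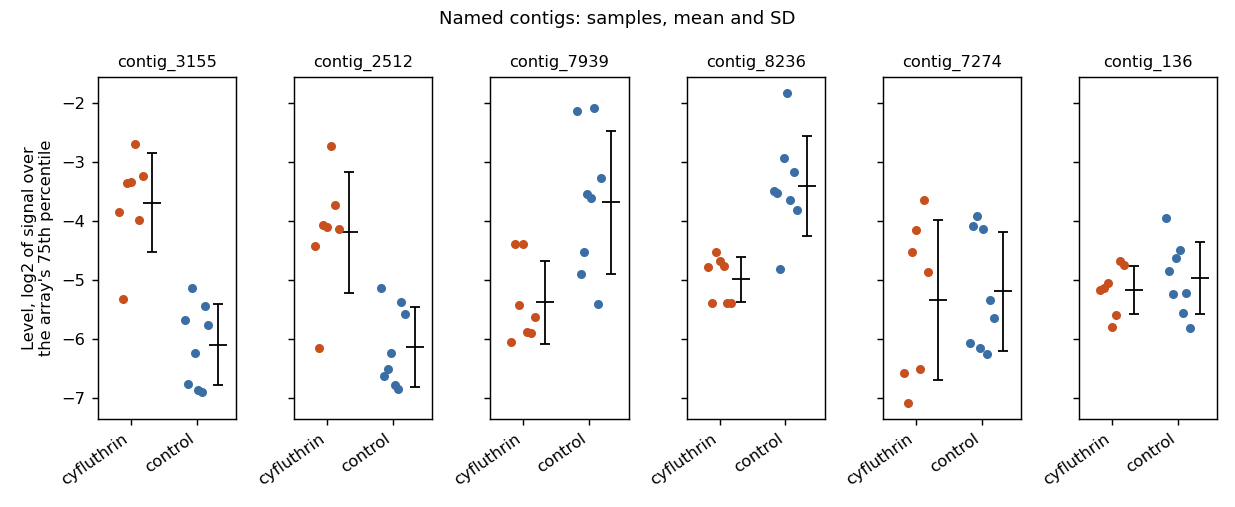
Level, as log2 of signal over the array's 75th percentile, of 6 partly detected contigs in each of the 7 cyfluthrin and 8 control samples (points), with the group mean and SD (bars); cyfluthrin replicates 5 and 6 are averaged as 1 point. The cyfluthrin mean is above the control mean by 2.41 for contig_3155 and 1.95 for contig_2512, below it for contig_7939 and contig_8236, and close to it for contig_7274 and contig_136.

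The slides and the position on a slide bear on these values. Each slide held 4 arrays of each group, and a test of whether the difference between the groups differed between slides called 0 of the 326 contigs in limma, with 33 of them, and 399 of all contigs, at an unadjusted p below 0.05. Within slide 1, 0 of the 326 were called by limma (0 of all contigs). There 111 of the 326, and 2311 of all 8507 contigs, had an unadjusted p below 0.05. Within slide 2, 15 were called (4.6%, against 8.26% of all contigs), 8 higher and 7 lower, against 203 and 500 of all contigs. Positions were not balanced: column 3 of the slides held 4 cyfluthrin arrays and 0 control arrays, columns 1 and 2 each held 1 cyfluthrin array and 3 control arrays, and column 4 held 2 of each. With the column as a covariate and replicate 5 standing for the alike pair, 54 of the 326 were called (16.6%, against 14.8% of all contigs). Of these 54, 25 were higher, against 273 higher calls over all 8507 contigs. With replicate 6 standing for the pair, 35 were called (10.7%, against 7.82% of all), 24 of them higher, against 210 higher over all contigs. Of the 6 contigs called higher without the covariate, 3 stayed called higher with it, whichever replicate stood for the pair. The calls of contig_7939 and contig_8236 were lost with the column covariate (limma adjusted p of at least 0.0758) and within each slide (at least 0.0666), with the differences negative throughout.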

How the data were processed

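Total RNA of 16 whole-body samples was labelled with Cy3 and hybridised to 1-colour Agilent arrays of 15744 spots on 2 slides. Per the file headers, the deposited intensity values were made by Agilent Feature Extraction 11.5.1.1 (9.1 per the submitters' processing notes) as background-subtracted processed signals with flags per spot. The authors' deposited series table holds log2 values; they match quantile-normalized signals centred on each probe's median (lowest correlation over the arrays 0.99996, column medians −0.11 to 0.12). Its scale and centring are inferred from that match.

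The 536 control spots were left out, outlier spots dropped (6 values had outlier spots only and kept them) and spots averaged per contig. The log2 signal minus the array's 75th percentile was tested with limma 3.58.1 (R 4.3.3; lmFit, eBayes, Benjamini-Hochberg over 8507 contigs), with no filter on dim probes. The group difference is cyfluthrin minus control. The script was tested on simulated data. A floor or bound uses each array's lowest signal among contigs well above background. Normexp used the median spot and background intensities and an offset of 50. E1A scaling used the 7 of 10 spike-in probes detected on all arrays. Figures were drawn with matplotlib 3.10.9.

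Contigs named by number were the 2 with the largest positive and the 2 with the largest negative difference (adjusted p below 0.05, and the median of 1 group passed by at least 7 arrays of the other), the 2 with the smallest difference among those detected on 3 arrays of each group, and the most variable in each group. The contigs and lists were chosen with earlier results of these data known. No gene names, probe sequences or genome were used here. The number of arrays and spots limits the precision.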

Additional observations from a re-analysis of the deposited data

Results flagged for a closer look

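Of the 24 sets of values screened for a sample far from the rest of its group, 3 stood out, where chance alone gives about 1 in 20. That rate does not hold for the named contigs, which were chosen from these same data. Among them contig_766, flagged in both groups, was named for the largest SD among controls. The median signal of the partly detected contigs was 11.7 on control 5, and the other controls had between 3.02 and 6.08. That array also detected most contigs of all, and its part in the results was not tested beyond leaving it out.

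The level of contig_766 was 4.60 on cyfluthrin 2, where the other cyfluthrin samples had between −7.34 and −3.29. The level of the same contig was 3.83 on control 4, where the other controls had between −6.10 and −3.55.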

How the results depend on the processing

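The 80 calls among the 326 contigs became 43 with median scaling, 29 with quantile normalization, 29 with the authors' deposited table, 16 with E1A scaling, 287 (0 higher) with normexp, 121 with values floored at the detection limit, 26 at an adjusted p below 0.01, 35 with the slide column as covariate and replicate 6 for the alike pair, 0 within slide 1 and 15 within slide 2, each with 4 arrays a group. Settings chosen after seeing the data gave 30 calls with no scaling and 49 without controls 5, 7 and 8. Leaving out 1 sample at a time gave 55 to 84 calls (23.5% to 32.5% of all contigs). At an adjusted p below 0.01, 11.3% of all contigs were called. The replicate numbers did not pair the samples, since deviations of same-numbered samples correlated between −0.58 and 0.40 and only replicate 3 correlated best with its own number; a fit with the replicate block called 45 (17% of all contigs) or 27 (12.4% of all), with replicate 5 or 6 for the alike pair, and gave contig_7274 a difference of 0.014 and contig_766 one of 0.024 with replicate 6. The number of contigs that met the rule was 150 by the positive-and-significant flag, 1 of them shared, and 578 for 4 to 8 arrays. It was 315 when all spots of a contig had to be well above background, with 112 shared. When any 1 spot sufficed it was 318, all of them shared. With 1 array left out it was 329 to 359, when at least 235 were shared, fewest without control 5. Differences changed sign for contig_3155 (−0.23) and contig_2512 (−0.40) with normexp, which also called contig_7274 (−0.60) and contig_136 (−0.62). For contig_7274 they were 0.027 with median scaling, 0.46 with quantile normalization, 0.33 with E1A, 0.46 in the authors' table, 0.051 without the alike pair, 0.56 with no scaling and −0.43 to 0.15 with 1 sample left out. For contig_136 they were 0.44 with quantile normalization, 0.28 with E1A, 0.44 in the authors' table, 0.14 within slide 2 and 0.50 with no scaling. For contig_766 they were 0.062 with median scaling, 0.46 with quantile normalization, 0.37 with E1A, 0.46 in the authors' table, 0.35 without the alike pair, 0.15 with slide as a block, 0.44 within slide 2, 0.59 with no scaling and −1.57 to 1.02 with 1 sample left out. For contig_2830, 8.63 and 8.35 with the column covariate were called. The cause of these changes was not tested. The signals lay close to the detection limit, which limits the precision of each contig's level.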
